A study of Mus musculus with 24 samples.

Results

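Genes for 9 interferon-induced GTPases of the mouse were followed through 24 libraries of splenic T cells: 4 immunity-related GTPases (Irgm1, Irgm2, Igtp and Iigp1) and 5 guanylate-binding proteins (Gbp2, Gbp3, Gbp5, Gbp7 and Gbp9). They were chosen by name and are 9 of 34111 genes in the deposited count table. The T cells came from the spleens of C57BL/6N mice that were either Atmwt/wt (here WT) or Atm-/- (here KO), lacking a kinase of the response to DNA breaks. Either genotype was studied with a transplanted B-cell lymphoma and without a transplant (control), and the same mice gave a CD4 and a CD8 library. This gives 8 groups of 3 libraries: CD4 and CD8 libraries of WT controls, KO controls, WT mice with lymphoma and KO mice with lymphoma. Behind the 24 libraries are 12 pools that hold 22 mice. The WT lymphoma pools hold 1 mouse each and the others 2 or 3, so pooling was uneven between the groups compared. The labels do not give the age or sex of the mice, which Atm allele was used, how CD4 and CD8 cells were separated, which lymphoma was transplanted, or the time after transplantation. Libraries hold polyadenylated RNA counted from a tag near the 3′ end of each transcript.

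Both families are GTPases that cells make after interferon and that act against microbes inside cells. Irgm1, Irgm2 and Igtp (also called Irgm3) belong to the regulatory branch of the immunity-related GTPases: they sit on the cell's own membranes and hold the effector branch in its inactive state. Iigp1 (also called Irga6) is an effector, which loads onto the membrane around an intracellular parasite and helps to break it open. In T cells, Irgm1 is also known for keeping CD4 cells alive during a strong interferon gamma response. The guanylate-binding proteins are larger GTPases. Gbp2 coats the vacuoles of parasites and bacteria, Gbp5 is known for promoting assembly of an inflammasome, and Gbp7 has been linked to the delivery of oxidase and autophagy components to such vacuoles. Interferon gamma acts on promoters mainly through the GAS element, and type I interferons act mainly through the ISRE element.

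Promoter sequences of 5 of the genes are shown because they hold the motif matches described after them: 4 hold both motifs, and Irgm1 is the regulatory gene called in CD4 cells. They are taken from RefSeq (GRCm38.p6), run from 250 bases before to 50 bases after the annotated start, and are written 5′ to 3′ on the gene's strand. Capitals mark matches on either strand to 2 motifs: the ISRE core (GAAA, any 2 bases, then GAAA again) and the GAS element, TTCNNNGAA. The coordinates are chr11:48871371-48871670 (minus strand) for Irgm1, chr11:58214727-58215026 for Irgm2, chr11:58199306-58199605 for Igtp, chr3:142496684-142496983 for Gbp5 and chr3:142530086-142530385 for Gbp7.
Irgm1: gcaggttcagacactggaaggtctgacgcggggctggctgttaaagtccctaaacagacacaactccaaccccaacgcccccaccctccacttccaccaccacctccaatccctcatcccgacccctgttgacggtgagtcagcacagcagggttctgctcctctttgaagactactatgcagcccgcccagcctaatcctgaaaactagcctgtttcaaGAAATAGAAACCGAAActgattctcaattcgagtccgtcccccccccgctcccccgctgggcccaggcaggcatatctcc
Irgm2: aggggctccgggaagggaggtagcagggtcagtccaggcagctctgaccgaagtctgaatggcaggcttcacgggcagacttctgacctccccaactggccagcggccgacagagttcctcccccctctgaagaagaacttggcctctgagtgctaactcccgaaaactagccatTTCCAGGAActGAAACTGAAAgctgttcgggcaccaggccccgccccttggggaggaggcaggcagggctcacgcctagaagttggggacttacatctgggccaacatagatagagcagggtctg
Igtp: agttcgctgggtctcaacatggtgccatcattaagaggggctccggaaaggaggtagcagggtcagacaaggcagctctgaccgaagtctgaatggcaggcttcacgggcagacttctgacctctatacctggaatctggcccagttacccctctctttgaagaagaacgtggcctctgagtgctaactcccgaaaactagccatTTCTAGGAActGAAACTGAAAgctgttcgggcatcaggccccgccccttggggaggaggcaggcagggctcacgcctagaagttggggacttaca
Gbp5: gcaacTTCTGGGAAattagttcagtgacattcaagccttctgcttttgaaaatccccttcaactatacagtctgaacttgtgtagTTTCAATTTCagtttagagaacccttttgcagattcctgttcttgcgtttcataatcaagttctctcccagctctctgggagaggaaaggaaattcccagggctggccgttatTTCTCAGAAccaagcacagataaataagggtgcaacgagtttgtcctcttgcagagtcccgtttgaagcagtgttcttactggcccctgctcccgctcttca
Gbp7: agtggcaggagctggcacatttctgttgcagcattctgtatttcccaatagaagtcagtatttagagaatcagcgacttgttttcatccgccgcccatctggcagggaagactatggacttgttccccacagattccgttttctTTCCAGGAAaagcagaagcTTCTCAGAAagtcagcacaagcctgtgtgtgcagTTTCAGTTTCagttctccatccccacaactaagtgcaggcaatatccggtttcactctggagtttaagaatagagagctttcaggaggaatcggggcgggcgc
The table matched 7 of the 9 genes, with 8 promoters (Gbp3 has 2 starts); Iigp1 and Gbp9 did not match. All 7 genes held at least 1 ISRE core match in 1 promoter, and the second Gbp3 promoter held none of either motif. The GAS motif was also held by 4 of them, Irgm2, Igtp, Gbp5 and Gbp7. Among all 32851 promoters of the same length, 3.44% held the ISRE core, 8.3% the GAS motif and 0.454% both. The ISRE core began 64 bases before the start in Irgm2 and 34 bases before it in Igtp, with a GAS match that began at 75 and 45 bases, in the same order and orientation in both. Aligned without gaps at an offset of 30 bases, the Irgm2 and Igtp promoters were identical at 184 of 270 positions (68.1%). Irgm1 held 2 overlapping ISRE matches that began 30 and 24 bases before the start. In Gbp5 the ISRE match lay 165 bases and the nearer GAS match 52 bases before the start, and in Gbp7 the ISRE match lay 53 bases and the GAS matches 106 and 87 bases before it. These matches describe letters in a window and do not show that a factor binds there.

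The genes lie in clusters. On GRCm38 (GENCODE M21), Gbp5 (ENSMUSG00000105504.4, chromosome 3, 142493978 to 142522344), Gbp7 (ENSMUSG00000040253.15, 142530342 to 142550149), Gbp3 (ENSMUSG00000028268.14, 142560026 to 142573209) and Gbp2 (ENSMUSG00000028270.12, 142620602 to 142638008) follow each other on the plus strand within 144031 bp. Gbp9 (ENSMUSG00000029298.15) lies on the minus strand of chromosome 5, from 105077630 to 105139539. Irgm1 (ENSMUSG00000046879.7) lies on the minus strand of chromosome 11, from 48861968 to 48871683. Igtp (ENSMUSG00000078853.8, 58199556 to 58207591) and Irgm2 (ENSMUSG00000069874.7, 58199618 to 58222782) share the plus strand of the same chromosome, and their annotated spans overlap by 7974 bp. Iigp1 (ENSMUSG00000054072.12) is on chromosome 18, from 60376027 to 60392634. Counts of near-identical relatives can be split by the counting, so the last 500 bases of each gene's protein-coding transcripts were compared with all other genes in words of 31 bases. None of these words in Irgm2, Igtp, Gbp2 or Gbp7 occurred in another gene. In Gbp9, 11.2% occurred elsewhere, in Gbp4, Gbp6, Gbp8, Gbp10, Gbp11 and Gm43302, and in Gbp3 4.48% occurred in Gbp7. In Irgm1 9.94% occurred in many unrelated genes, in Gbp5 1.64% occurred in 9 other genes, and in Iigp1 1.27% occurred in Gm4951. Counts of Gbp9, Irgm1 and Gbp3 are therefore the least certain in their assignment.

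Total counts ran from 6470482 to 10196062 per library, and 15263 to 17707 genes had a count. Atm stood between 26.9 and 107 CPM (each count scaled to its library's total) in the 12 KO libraries and between 117 and 210.4 CPM in the 12 WT libraries. Cd4 stood at 71.1 to 134 CPM in CD4 and 1.45 to 7.94 CPM in CD8 libraries, and Cd8a at 2.84 to 22.5 CPM and 142 to 534 CPM. The summed level of 12 pan-T markers was 1292 to 4339 CPM and none of them was at 0 in any group. The library CD8 KO lymphoma 1 stood apart: it had the lowest pan-T sum, and 9 erythroid markers summed to 65688 CPM there against 396 to 7859 CPM in the other CD8 libraries. Its 12 neutrophil markers summed to 3683 CPM, against 62.4 to 521 CPM in the other CD8 libraries. CD8 KO control 1 had the most genes with a count (17707) at one of the lowest totals (6541484). The CD8 comparisons of the 9 genes that use these libraries are given with and without them. Nothing in the labels says how the libraries of a group were separated beyond their mice, and p-values measure the spread between these libraries.

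In CD4 cells of WT mice, all 9 GTPase genes were higher with lymphoma than without. Irgm1, Gbp5 and Iigp1 rose in edgeR's quasi-likelihood test (Benjamini-Hochberg adjusted p under 0.05 over all 12808 genes tested), and no library of either group overlapped for any of the 9 genes. Among all genes tested, 1.62% rose and 16.4% were higher without overlap. The median log2 change of the 9 genes was 0.84, against -0.01 over all genes tested. Of the 9, 7 had an unadjusted p under 0.05, as did 15.2% of all genes tested. Such RNA comes from whole cell populations, so a different share of cells making a transcript and a different amount per cell cannot be told apart here or below.

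Of the regulatory branch, Irgm1 stood at 8.57, 8.32 and 8.81 CPM in the 3 CD4 WT controls and at 16.6, 18.6 and 15.5 CPM in the 3 CD4 WT lymphoma libraries. Its controls lay within 1 CPM of each other and every lymphoma library lay well above them (log2 change 0.92 ± 0.18 SE, 1.89-fold, adjusted p = 0.0231). Irgm1 rested on few reads, from 50 to 159 counts per library. Igtp stood at 70.4, 46.9 and 55.6 CPM in controls and at 113, 116 and 121 CPM with lymphoma (log2 change 0.96 ± 0.25 SE, as in the parentheses that follow, adjusted p = 0.0785). Irgm2 stood at 73.7, 73.3 and 82.2 CPM in controls and at 133, 100.6 and 169 CPM with lymphoma (0.76 ± 0.22, adjusted p = 0.109). The 3 lymphoma mice were close to each other for Igtp and spread widely for Irgm2, although these 2 genes share a locus. The effector Iigp1 changed most: its CPM was 47.9, 62.9 and 38.02 in controls and 126, 129 and 155 with lymphoma (1.39 ± 0.30, 2.61-fold, adjusted p = 0.0417).

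Of the guanylate-binding proteins in CD4 cells, Gbp5 stood at 26.1, 17.6 and 24.9 CPM in WT controls and at 47.0, 50.6 and 42.6 CPM in WT lymphoma libraries (0.98 ± 0.19, 1.97-fold, adjusted p = 0.0260). Gbp2 stood at 15.7, 15.4 and 12.4 CPM against 26.7, 23.6 and 31.1 CPM (0.84 ± 0.21, adjusted p = 0.0721). Gbp3 stood at 14.5, 23.9 and 18.2 CPM against 33.6, 32.0 and 30.1 CPM (0.69 ± 0.24, adjusted p = 0.184). Each of these genes had its lowest lymphoma library above its highest control. Gbp7 and Gbp9 had the smallest differences: Gbp7 went from 141, 136 and 129 CPM to 195, 220.1 and 225 CPM (0.59 ± 0.27, adjusted p = 0.332), and Gbp9 from 52.4, 51.4 and 38.9 CPM to 68.0, 73.6 and 69.1 CPM (0.49 ± 0.35, adjusted p = 0.533). The 3 calls rest on all the libraries: each of CD4 WT control 1, 2 and 3 and CD4 WT lymphoma 2 and 3 left out in turn ended the calls of Irgm1 (adjusted p 0.0707 to 0.111) and Gbp5 (0.0681 to 0.105), and any of the 6 ended that of Iigp1 (0.0523 to 0.183). DESeq2 called 6 of the 9 genes and limma voom 6, and Irgm1, Iigp1 and Gbp5 were called by both. Unless stated, shares of all genes called are those of the main edgeR fit, here and below. Counts from other fits stand without such a share, so they say nothing particular to the 9 genes.

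**Figure D1:**
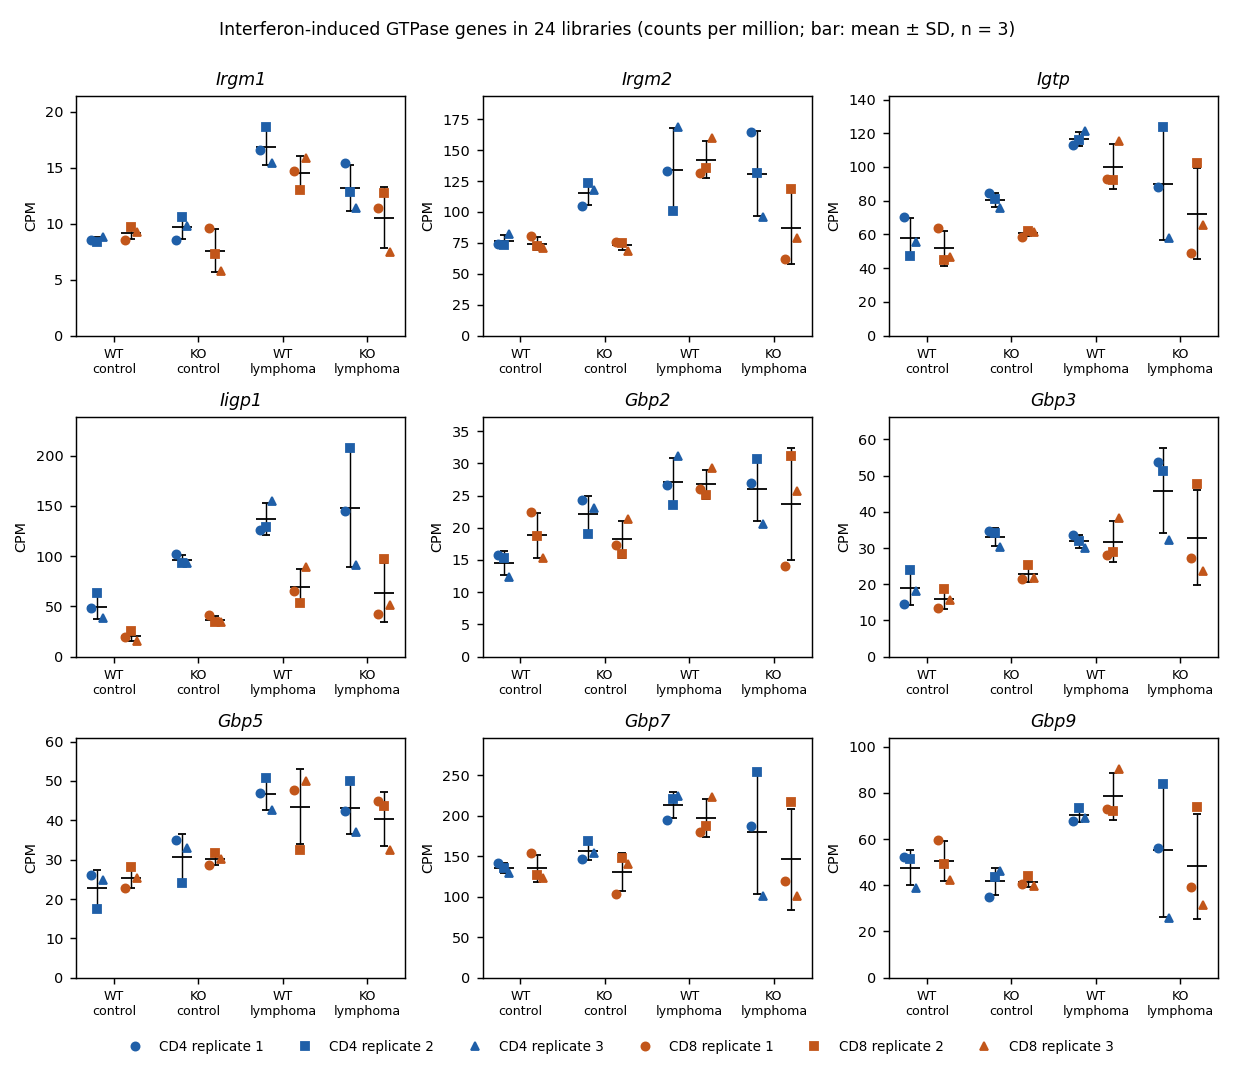
Level of each GTPase gene in the 24 libraries, in CPM on a linear axis from 0, by genotype and condition, with CD4 libraries in blue and CD8 libraries in orange; marker shapes give the replicate number and black bars the mean ± SD of 3 libraries. With lymphoma, WT libraries lie above WT controls in all 9 panels without overlap, KO lymphoma libraries spread widely, and Iigp1 is lower in CD8 than in CD4 libraries in every condition.

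Markers of other cells differed between the same CD4 groups. The 18 monocyte and macrophage markers summed to 928, 1462 and 1199 CPM in CD4 WT controls and to 1708, 1841 and 2428 CPM in CD4 WT lymphoma libraries, with none of the 18 at 0. Of these, 2 rose (Lgals3 and Cybb) and 1 fell (Cd163). Of 10 platelet markers 6 rose, and their sum went from 110.2 to 138 CPM in controls to 288 to 323 CPM. The 12 neutrophil markers summed to 70.3 to 206 CPM in controls and 314 to 740.04 CPM with lymphoma, and 1 of 11 tested rose (Mpo). With the monocyte and macrophage score as a covariate the median log2 change of the 9 GTPase genes was 0.98, and Irgm1 (0.98 ± 0.31), Gbp5 (1.37 ± 0.32) and Iigp1 (1.44 ± 0.51) were as large as before, but no gene of the 12808 passed the test. Y-linked genes (Ddx3y, Eif2s3y and Uty), which mark male mice, summed to 68.1 to 189 CPM in CD4 WT controls and to 4.80, 1.88 and 117 CPM in CD4 WT lymphoma libraries. With a Y-linked score as a covariate, Irgm1 was at 0.77 ± 0.20 (adjusted p = 0.0507), Gbp5 at 0.87 ± 0.22 (0.0518) and Iigp1 at 1.30 ± 0.35 (0.0664). The part of platelets and neutrophils in the difference was not tested.

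In CD8 cells of WT mice the 9 genes were again all higher with lymphoma and again without overlap between libraries. Iigp1 and Irgm2 rose, against 1.26% of the 12650 genes tested that rose and 14.2% that were higher without overlap. Of the 9, 8 had an unadjusted p under 0.05 (17.8% of all genes tested), and the median log2 change was 0.78 against -0.01 over all genes. Iigp1 stood at 19.6, 25.01 and 15.9 CPM in CD8 WT controls and at 64.9, 53.2 and 88.8 CPM with lymphoma (1.77 ± 0.31, 3.41-fold, adjusted p = 0.0208). Irgm2 stood at 80.2, 72.1 and 70.9 CPM against 131, 136 and 159.8 CPM (0.95 ± 0.19, 1.93-fold, adjusted p = 0.0309). For both genes the lymphoma libraries were well clear of the controls. DESeq2 called 5 of the 9 genes, limma voom 8 and edgeR on the 6 compared libraries alone 8, and Gbp2 was the member that none of these 3 called. The share of all genes that these 3 fits called is not given here.

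The other regulatory genes in CD8 cells, Igtp and Irgm1, did not pass. Igtp stood at 63.6, 44.6 and 46.7 CPM in controls and at 93.0, 92.3 and 115 CPM with lymphoma (0.97 ± 0.23, adjusted p = 0.0554), and Irgm1 at 8.58, 9.69 and 9.30 CPM against 14.8, 13.0 and 15.9 CPM (0.67 ± 0.23, adjusted p = 0.150). Gbp3 stood at 13.4, 18.7 and 15.7 CPM against 28.0, 29.0 and 38.2 CPM (0.998 ± 0.25, adjusted p = 0.0649), and Gbp5 at 22.8, 28.1 and 25.4 CPM against 47.8, 32.5 and 50.01 CPM (0.78 ± 0.18, adjusted p = 0.0521). Gbp5 was thus high in 2 of the 3 lymphoma mice and closer to the controls in CD8 WT lymphoma 2. Gbp9 (0.65 ± 0.26), Gbp7 (0.56 ± 0.25) and Gbp2 (0.52 ± 0.25) changed least, with adjusted p between 0.225 and 0.309. The call of Irgm2 ended without CD8 WT control 1, 2 or 3 or CD8 WT lymphoma 2 or 3 (adjusted p 0.0699 to 0.174), and that of Iigp1 without CD8 WT control 1 or 3 or CD8 WT lymphoma 2 or 3 (0.0505 to 0.108).

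Beside these values, the 18 monocyte and macrophage markers summed to 439, 1553 and 1135 CPM in CD8 WT controls and to 1608, 1924 and 2651 CPM in CD8 WT lymphoma libraries, with none at 0 and none passing the test (11 of 18 had an unadjusted p under 0.05 in edgeR). Of the 10 platelet markers 6 rose. With the monocyte and macrophage score as a covariate, Iigp1 was at 1.70 ± 0.45 and Irgm2 at 1.07 ± 0.27, and only 4 genes of all tested passed, none of them a GTPase gene described here. Y-linked genes summed to 54.7 to 178 CPM in CD8 WT controls and to 4.72, 1.41 and 161 CPM with lymphoma, and with their score as a covariate Iigp1 passed (1.84, adjusted p = 0.0470) and Irgm2 did not (0.93, adjusted p = 0.0663). The difference between the WT response of CD8 and CD4 cells was tested directly: no member passed, none had an unadjusted p under 0.05 (1.36% of all genes tested), and neither DESeq2 nor voom called one. Over all genes tested 0% passed. For Iigp1 that difference was 0.35 ± 0.45 and for Irgm1 -0.28 ± 0.28.

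In KO mice the 9 genes were also all higher on average with lymphoma, but none passed. In CD4 cells the median log2 change was 0.42 and the largest were Iigp1 (0.63 ± 0.29, adjusted p = 0.336), Gbp5 (0.48 ± 0.19, adjusted p = 0.266) and Gbp3 (0.46 ± 0.23, adjusted p = 0.369). Of the 9, Irgm1 and Gbp5 had an unadjusted p under 0.05 (15.2% of all genes tested) and were higher without overlap, against 0% of all genes that rose and 8.8% that were higher without overlap. DESeq2 called none of the 9 and voom called 2, Irgm1 and Gbp3. In CD8 cells the median was 0.37, with Iigp1 at 0.79 ± 0.30 (adjusted p = 0.128), Gbp3 at 0.53 ± 0.24 (adjusted p = 0.187) and Irgm1 at 0.48 ± 0.23 (adjusted p = 0.198). Iigp1 and Gbp5 had an unadjusted p under 0.05 (27.3% of all genes tested) and were higher without overlap there, against 1.39% of the 12650 genes that rose and 14% that were higher without overlap. Neither DESeq2 nor voom called a GTPase gene in that comparison.

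The makeup of the KO libraries differed with lymphoma as well. In CD4 cells the 12 B cell markers summed to 269 to 429 CPM with lymphoma against 884 to 1060 CPM in controls (12 of 12 with an unadjusted p under 0.05), and the 11 natural killer cell markers to 279.8 to 489 CPM against 782 to 933 CPM (9 of 11), with none called in edgeR. Monocyte and macrophage markers summed to 2803 to 3945 CPM against 2117 to 2758 CPM (6 of 18, none called). In CD8 cells the 12 pan-T markers summed to 1292 to 2468 CPM with lymphoma against 2991 to 3232 CPM in controls, and 3 of them fell. Monocyte and macrophage markers there summed to 2780.4 to 3648 CPM against 1769 to 1778 CPM and neutrophil markers to 407 to 3683 CPM against 96.3 to 140.3 CPM, and 1 marker of each set rose. Natural killer, B cell and pan-T shares were not tested for their part in the KO values; with the monocyte and macrophage score as a covariate the median log2 change of the 9 genes in CD8 KO mice was 0.39.

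The 3 KO lymphoma pools were spread more widely than the 3 WT lymphoma mice: the SD of CPM was larger for 9 of 9 genes in CD4 and for 8 of 9 in CD8 libraries (all but Gbp5), a difference in spread that was not tested. In CD4 libraries Iigp1 stood at 145, 207 and 90.9 CPM, next to 102, 93.0 and 93.3 CPM in CD4 KO controls, so that pool 3 lay below all 3 controls. Gbp9 stood at 56.3, 83.6 and 25.6 CPM against 35.1, 43.5 and 46.4 CPM, and Gbp7 at 188, 253 and 100.4 CPM against 146, 168 and 153 CPM. Pool 2 was the highest and pool 3 the lowest for each of these genes. Pool 3 was also the lowest of the 3 for Irgm1 (15.4, 12.8 and 11.4 CPM), Irgm2 (165, 132 and 96.1 CPM), Igtp (88.1, 124 and 57.7 CPM), Gbp2 (27.0, 30.6 and 20.6 CPM), Gbp3 (53.9, 51.3 and 32.3 CPM) and Gbp5 (42.3, 49.96 and 37.1 CPM). Summed over the 9 genes the 3 CD4 libraries held 780.4, 944 and 472 CPM, against 575 to 597 CPM in the CD4 KO controls and 759 to 858 CPM in the CD4 WT lymphoma libraries. The 12 pan-T markers of the 3 CD4 KO lymphoma libraries summed to 2452, 3284 and 1848 CPM, in the same order of pools. The part of T cell content in the order of the pools was not tested.

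In the CD8 libraries of the same pools the 9 genes summed to 411, 745 and 417 CPM, against 397 to 444 CPM in CD8 KO controls and 639.98 to 811 CPM in CD8 WT lymphoma libraries. The 12 pan-T markers of these KO lymphoma libraries summed to 1292, 2468 and 1951 CPM, in the same order of pools. The part of T cell content in the GTPase sums was not tested. By the GTPase sum, pools 1 and 3 lay at or near the level of mice without lymphoma. Pool 2 lay with the WT lymphoma mice. Igtp, for example, stood at 49.2, 102 and 65.6 CPM, next to 58.7, 62.2 and 61.4 CPM in CD8 KO controls, and Irgm2 at 62.3, 119 and 78.8 CPM next to 75.4, 74.9 and 68.6 CPM. Gbp5, with 44.8 CPM in pool 1, 43.6 in pool 2 and 32.4 in pool 3, lay above all 3 controls (28.7, 31.8 and 30.1 CPM), and so did Iigp1, with 42.8, 97.3 and 50.9 CPM against 41.4, 34.7 and 34.6 CPM. In pool 1 the CD4 library held 780.4 CPM and the CD8 library, which stands apart in its erythroid and neutrophil RNA, 411 CPM. Without CD8 KO lymphoma 1 the median log2 change in CD8 KO mice was 0.43, without CD8 KO control 1 it was 0.33, and none of the 9 passed in either fit. Without pool 2 it was 0.09 in CD8 and 0.12 in CD4 cells, and without pool 3 it was 0.45 and 0.54. The log2 changes of Igtp, Gbp7 and Gbp9 turned negative without pool 2 in both co-receptors, and that of Irgm2 did so in CD8 cells (-0.09).

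**Figure D2:**
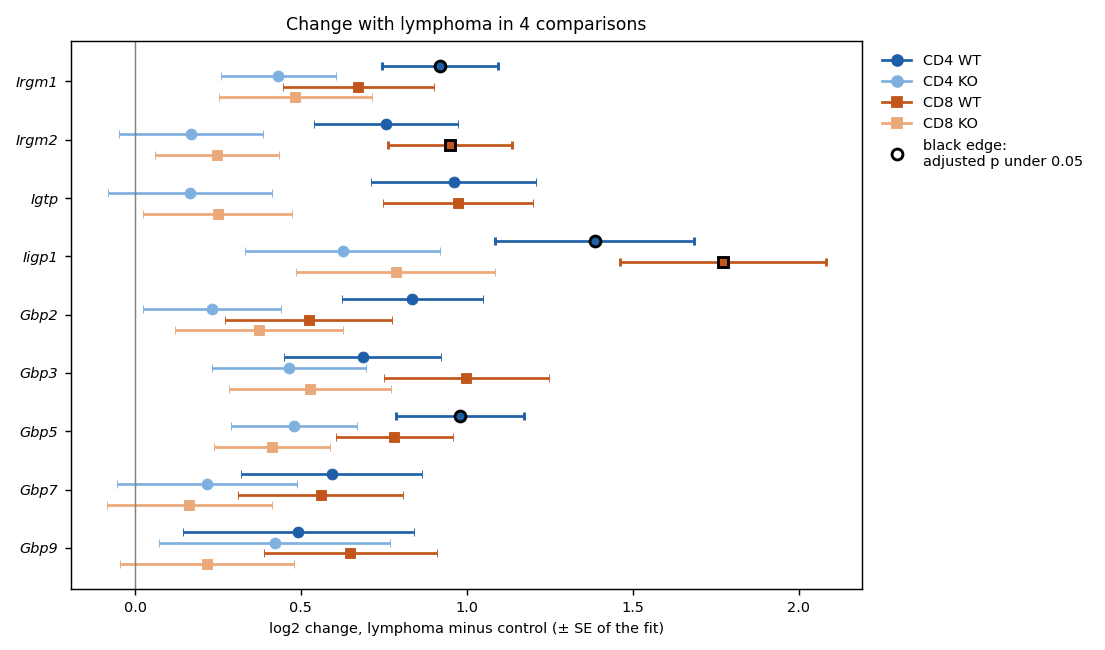
Log2 change of each GTPase gene between lymphoma and control libraries (x axis, ± SE of the fit) in CD4 and CD8 cells of WT and KO mice, with 3 libraries per group; a black edge marks an adjusted p under 0.05. All 36 estimates lie above 0, the 5 that pass are all in WT mice, and the KO value of each gene lies to the left of the WT value in the same co-receptor.

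Whether the KO response differed from the WT response was tested as an interaction. In CD4 cells all 9 estimates were negative, from -0.79 ± 0.35 (Igtp) to -0.07 ± 0.49 (Gbp9), with a median of -0.50. In CD8 cells all 9 were negative as well, from -0.99 ± 0.43 (Iigp1) to -0.15 ± 0.36 (Gbp2), with a median of -0.43, which moved to -0.87 without CD8 KO lymphoma 2 and to -0.23 without CD8 KO lymphoma 3. Without CD8 KO lymphoma 1 it was -0.36 and without CD8 KO control 1 it was -0.52. None of the 9 passed in edgeR, DESeq2 or voom in either co-receptor, with adjusted p near 1 for every gene in edgeR, and 0% of all genes tested passed. Of the 9, 1 in CD4 cells (Igtp) and 3 in CD8 cells (Irgm2, Igtp and Iigp1) had an unadjusted p under 0.05, as did 3.64% and 3.49% of all genes tested. Over all genes tested the medians were -0.02 and -0.03. The sign was not particular to the 9 genes: of 24 type I interferon-stimulated genes 0 were positive in CD4 (median -0.66) and 2 in CD8 cells (-0.38). Of 12 pan-T markers 4 were positive in CD4 (median -0.08) and 0 in CD8 cells (-0.37). The part of cell makeup in the interaction estimates was not tested. In simulated data of the same CD4 design, the test recovered 11 of 100 interactions of 2-fold and 61 of 100 of 4-fold, so most differences of 2-fold would be missed. The simulated data held both sets of changed genes at once, which eases the adjusted threshold, whereas no gene passed in the real data. Recovery of a change in the 9 genes alone could therefore be lower than these rates. The largest estimates, for Igtp in CD4 and Iigp1 in CD8 cells, were at or below 2-fold. The CD8 design was not simulated.

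Among mice without lymphoma, CD4 cells held more of most of these transcripts in KO than in WT mice. Of the 9 estimates 8 were positive, with a median log2 difference of 0.41, and 6 genes were higher in every KO than in every WT library, where 21.4% of all genes tested were. None of the 9 passed in edgeR, whereas 1.94% of all genes were called higher; 4 had an unadjusted p under 0.05 (18.1% of all genes tested), DESeq2 called none and voom called 4 (Irgm2, Iigp1, Gbp2 and Gbp3). Iigp1 stood at 47.9, 62.9 and 38.02 CPM in CD4 WT controls and at 102, 93.0 and 93.3 CPM in CD4 KO controls (0.87 ± 0.30, 1.82-fold, adjusted p = 0.155). Gbp3 stood at 14.5, 23.9 and 18.2 CPM against 34.6, 34.2 and 30.3 CPM (0.72 ± 0.24, adjusted p = 0.135). The 3 KO pools agreed closely for both genes. Irgm2 (105, 123 and 118 CPM in KO controls, 0.52 ± 0.22, adjusted p = 0.227), Gbp2 (24.3, 19.0 and 23.1 CPM, 0.53 ± 0.21, adjusted p = 0.215), Igtp (84.4, 81.1 and 75.7 CPM, 0.41 ± 0.25, adjusted p = 0.406) and Gbp7 (146, 168 and 153 CPM, 0.13 ± 0.27, adjusted p = 0.843) were higher without overlap. Irgm1 (0.10 ± 0.18) and Gbp5 (0.36 ± 0.19) overlapped, and Gbp9 was at -0.27 ± 0.35. This comparison and the lymphoma comparison in WT mice share the same WT control libraries, so their values are not independent.

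Between the CD4 control groups the monocyte and macrophage markers differed more than with lymphoma: they summed to 2591, 2117 and 2758 CPM in CD4 KO controls against 928 to 1462 CPM in CD4 WT controls, and 9 of the 18 were called higher, with none at 0. The 12 B cell markers summed to 884 to 1060 CPM against 202 to 721 CPM, the 11 natural killer cell markers to 782 to 933 CPM against 364 to 671 CPM and the 9 erythroid markers to 5099 to 34891 CPM against 429.95 to 9402 CPM. Of these, 1 B cell marker, 1 natural killer cell marker and 0 erythroid markers were called higher in edgeR, where 9 of 9 erythroid markers had an unadjusted p under 0.05. With the monocyte and macrophage score as a covariate the median log2 difference of the 9 genes was 0.55, and no gene of all tested passed. Platelet markers summed to 183 to 369.8 CPM against 110.2 to 138 CPM, and 5 of 10 were called higher. Y-linked genes summed to 2.69, 1.25 and 57.7 CPM in CD4 KO controls against 68.1 to 189 CPM, and with their score as a covariate the median log2 difference of the 9 genes was 0.24. The part of platelets, B cells, natural killer cells and erythroid RNA in the difference was not tested.

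In CD8 cells of mice without lymphoma the genotypes were closer. The median of the 9 estimates was 0.005, 5 were positive, and none passed in edgeR, DESeq2 or voom (1 had an unadjusted p under 0.05, where 14.7% of all genes tested did, and 0.403% of all genes were called higher). Iigp1 was the exception, with 19.6, 25.01 and 15.9 CPM in CD8 WT controls and 41.4, 34.7 and 34.6 CPM in CD8 KO controls (0.89 ± 0.31, 1.86-fold, adjusted p = 0.229), as large a difference as in CD4 cells. Gbp3 (0.54 ± 0.25) and Gbp5 (0.28 ± 0.18) were also higher without overlap, as were 12.1% of all genes tested. Irgm2 (0.005 ± 0.19), Gbp2 (-0.01 ± 0.25) and Gbp7 (-0.01 ± 0.25) stood at the same level in both genotypes to within their errors. Without CD8 KO control 1 the median was 0.13 and none passed. Markers of other cells differed here too, with none called in edgeR and none at 0 in the sets that follow. Monocyte and macrophage markers summed to 1769 to 1778 CPM in CD8 KO controls against 439 to 1553 CPM in CD8 WT controls (10 of 18 with an unadjusted p under 0.05). Platelet markers summed to 157 to 295 CPM against 66.3 to 113 CPM (9 of 10), and natural killer cell markers to 1164 to 1452 CPM against 580.4 to 882 CPM (4 of 11). Y-linked genes summed to 3.82, 2.79 and 66.5 CPM against 54.7 to 178 CPM. With the monocyte and macrophage score as a covariate, Iigp1 was at 0.83 ± 0.42, and with the Y-linked score at 0.97 ± 0.38. The part of platelets and natural killer cells in the Iigp1 difference was not tested.

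With lymphoma, no difference between the genotypes passed, and most estimates were negative. In CD4 cells 7 of 9 estimates were negative (median -0.14), none passed in edgeR, DESeq2 or voom, and 0% of all genes did; Irgm1 alone had an unadjusted p under 0.05 (10.9% of all genes tested) and was lower in every KO library (-0.39 ± 0.17, adjusted p = 0.452; 6.09% of all genes were lower without overlap). Gbp3 stood on the other side, at 0.50 ± 0.23 (adjusted p = 0.463), and without CD4 KO lymphoma 3 the median was 0.06. In CD8 cells 8 of 9 were negative (median -0.41), and none passed in edgeR, where 0.174% of all genes were called lower. Irgm2 was the lowest, at -0.70 ± 0.19 (adjusted p = 0.117), and was called by DESeq2 and not by voom. Irgm2 and Irgm1 were lower in every KO library, as were 13.5% of all genes, and Irgm2 and Gbp9 (-0.68 ± 0.26, adjusted p = 0.211) had an unadjusted p under 0.05, as did 18% of all genes tested. The result hangs on CD8 KO lymphoma 2: without it Irgm2 (-1.03, adjusted p = 0.00262), Gbp9 (-1.17, adjusted p = 0.00505), Gbp7 (-0.85, adjusted p = 0.0163) and Igtp (-0.82, adjusted p = 0.0168) fell, and 978 genes passed in all. Without CD8 KO lymphoma 1, which stands apart, none passed and the median was -0.25. Cell markers differed between these groups too, with none called in edgeR in the sets that follow. In CD8 cells the median log2 difference was -0.55 for 12 pan-T, 2.51 for 12 B cell, 3.08 for 11 neutrophil and 3.78 for 9 erythroid markers. In CD4 cells it was -0.41 for pan-T and 0.82 for 18 monocyte and macrophage markers. The part of T cell content, B cells, neutrophils and erythroid RNA in these genotype differences was not tested.

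Between co-receptors, 1 gene of the 9 stood out. Iigp1 was lower in the CD8 than in the CD4 library of all 12 mouse pools, at 0.295 to 0.572 of the CD4 level with a median of 0.411. The ratios were 0.410, 0.398 and 0.419 in WT controls, 0.405, 0.373 and 0.371 in KO controls, 0.515, 0.413 and 0.572 in WT lymphoma pools and 0.295, 0.469 and 0.559 in KO lymphoma pools. The 6 control pools thus lay within a narrow band and the lymphoma pools spread to both sides of it. The other 8 genes had median ratios between 0.807 (Gbp3) and 1.04 (Gbp9). Igtp and Gbp3 were lower in CD8 cells in 11 of the 12 pools, Irgm2 and Gbp7 in 10, Irgm1 in 7, Gbp2 and Gbp5 in 6 and Gbp9 in 5. Markers of other cells differed too. In KO controls B cell markers summed to 884 to 1060 CPM in CD4 and 348 to 469 CPM in CD8 libraries. Erythroid markers summed to 5099 to 34891 against 1246 to 3390 CPM, and natural killer cell markers to 782 to 933 against 1164 to 1452 CPM. In WT controls each of these sums overlapped between co-receptors. Natural killer cell markers were still higher in the CD8 library of each WT control pool (580.4, 875 and 882 against 364, 434 and 671 CPM). Of 11 such markers 2 were called higher there, as were 246 of all 13232 genes tested. With lymphoma they summed to 533 to 577 CPM in CD8 against 306 to 342 CPM in CD4 libraries of WT mice. In KO mice the sums were 658 to 1226 against 279.8 to 489 CPM. The part of these other cells in the Iigp1 difference was not tested.

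**Figure D3:**
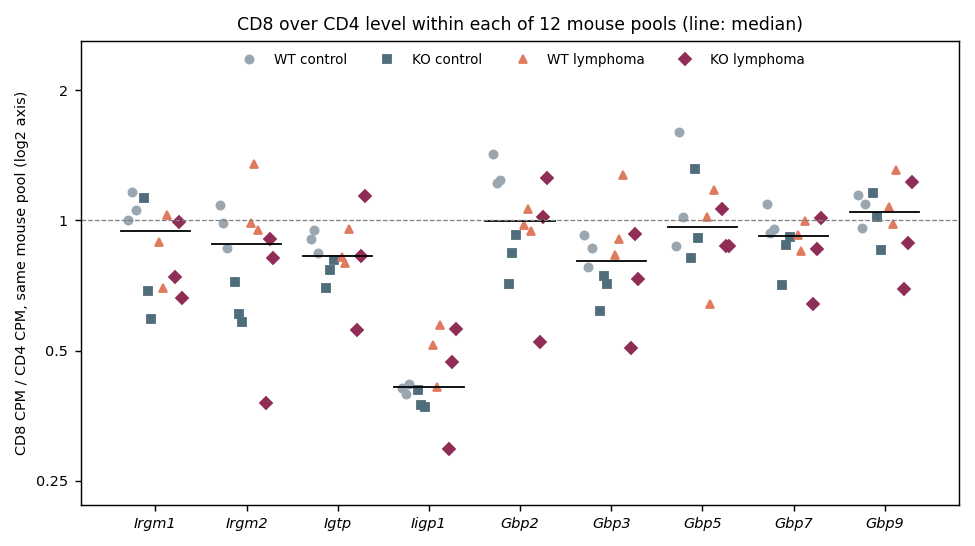
CD8 level divided by the CD4 level of the same mouse pool (log2 axis, 1 meaning equal) for each GTPase gene, with 1 point per pool, 12 pools in 4 conditions, and a line at the median. All 12 Iigp1 points lie between 0.295 and 0.572, whereas the medians of the other 8 genes lie between 0.807 and 1.04.

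In the fit of all 24 libraries (13232 genes tested), Iigp1 was the only one of the 9 to fall in CD8 against CD4 cells, in WT controls (-1.27 ± 0.33, adjusted p = 0.0338) and in KO controls (-1.30 ± 0.32, adjusted p = 0.0199). Of all genes tested 1.62% and 2.6% were called lower in these comparisons. With lymphoma it was at -0.92 ± 0.31 in WT (adjusted p = 0.190; 1.38% of all genes called lower) and at -1.12 ± 0.31 in KO mice (adjusted p = 0.0738; 1.24%), and did not pass, although in KO mice it passed without CD8 KO lymphoma 2 (-1.58, adjusted p = 0.00838) or CD4 KO lymphoma 3 (-1.40, adjusted p = 0.0107) and stood at -0.90 without CD8 KO lymphoma 1. These fits hold no term for the mouse pool. With the pool as a block, Iigp1 passed in all 4 conditions, at -1.26 ± 0.15 (adjusted p = 9.84e-05), -1.30 ± 0.14 (4.35e-05), -0.94 ± 0.14 (8.44e-04) and -1.11 ± 0.14 (2.25e-04). In these edgeR fits of 24 libraries no other member was called in any of the 4 conditions, with or without the block. In KO controls Irgm2, Igtp and Gbp3 were also lower in CD8 cells without overlap (24.5% of all genes were). Without overlap, Iigp1 alone was lower in WT controls (10.1% of all genes) and WT lymphoma mice (14.7%), and none of the 9 in KO lymphoma mice (8.73%). In KO controls Irgm2 was at -0.57 ± 0.21 (adjusted p = 0.141), and voom and edgeR on the compared libraries alone each called it lower. Without the block, the WT control call ended without CD4 WT control 1 or 2 or CD8 WT control 1 or 3 (adjusted p 0.0775 to 0.188), and the KO control call ended when any of its 6 libraries was left out (0.0528 to 0.0739). With the monocyte and macrophage score as a covariate, the Iigp1 call in WT controls ended and that in KO controls held. An unadjusted p under 0.05 was found for 1 of the 9 genes in WT controls (10.7% of all genes tested), 2 in KO controls (17.4%), 1 in WT lymphoma (9.36%) and 2 in KO lymphoma mice (11.5%). With lymphoma, DESeq2 called 0 of the 9 in WT and 1 in KO mice, and voom called Iigp1 in both. Whether the KO response to lymphoma differed between CD8 and CD4 cells was tested too: no member passed in edgeR, DESeq2 or voom, 0 had an unadjusted p under 0.05 (4.75% of all genes tested), and 0% of all genes passed. No member passed in any of the 22 alternatives of that test, which include leaving out CD8 KO lymphoma 1 or CD8 KO control 1. Over them Iigp1 ran from -0.28 to 0.58 and Gbp9 from -0.65 to 0.32.

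Ordered by group mean, the 8 groups formed a gradient with few breaks. Irgm1, Igtp, Gbp2, Gbp5 and Gbp7 were highest in CD4 WT lymphoma and next in CD8 WT lymphoma libraries (16.9 ± 1.61 and 14.5 ± 1.48 CPM for Irgm1, mean ± SD, n = 3), whereas Irgm2 and Gbp9 were highest in CD8 WT lymphoma libraries (142 ± 15.2 and 78.5 ± 10.1 CPM). Iigp1 (148 ± 58.3 CPM) and Gbp3 (45.8 ± 11.8 CPM) were highest in CD4 KO lymphoma libraries. The lowest mean was in CD8 KO controls for Irgm1 (7.58 ± 1.93 CPM), Irgm2, Gbp7 and Gbp9, in CD8 WT controls for Igtp, Iigp1 and Gbp3, and in CD4 WT controls for Gbp2 and Gbp5. Neighbours in this order overlapped in almost every case. The breaks were between CD4 WT lymphoma (137 ± 16.02), CD4 KO control (96.2 ± 5.29) and CD8 WT lymphoma (69.0 ± 18.2 CPM) for Iigp1, and again between CD8 KO control (36.9 ± 3.92) and CD8 WT control (20.2 ± 4.56 CPM). Gbp2 broke between CD8 KO control and CD4 WT control, Gbp3 between CD8 WT lymphoma and CD8 KO control, and Gbp5 between CD8 KO control and CD8 WT control.

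The 9 genes did not vary as 1 unit. After centring each co-receptor, the highest correlations of log2 CPM over the 24 libraries were between Gbp7 and Gbp9 (Pearson r = 0.923) and between Iigp1 and Gbp3 (0.907), and the lowest were between Gbp3 and Gbp9 (0.380) and between Gbp5 and Gbp9 (0.462). Gbp3 and Gbp7 lie beside each other on chromosome 3 and were at 0.570, while Gbp7 and Gbp9 lie on different chromosomes. Irgm2 and Igtp, which share a locus and similar promoters, were at 0.837. These values are a description: the 24 libraries share 12 sets of mice, and depth and cell makeup vary among them. Against the mean of the 9 genes, genes outside the 9 with a similar pattern were Trim30a (r = 0.947), Gbp6 (0.946), Gm12250 (0.928), Rnf213 (0.922) and Ifit3 (0.905), all interferon-induced. By the same measure, the 9 genes, each of which is itself part of that mean, ranged from 0.758 (Gbp9) to 0.932 (Igtp). Gbp6 shares 3′ words with Gbp9, so the assignment of reads in this pair is uncertain.

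A list of 12 genes covered the interferon gamma ligand, its receptor and its signalling. With lymphoma, the ligand Ifng itself was at 0.52 ± 0.34 in CD4 (adjusted p = 0.502) and 1.61 ± 0.77 in CD8 WT mice (adjusted p = 0.310). The median of the 12 was 0.26 and 0.17, against -0.01 over all genes tested in both. In CD4 KO against WT controls 2 of the 12 were higher, Ifng (1.56 ± 0.33, adjusted p = 0.0399) and Irf8 (1.35 ± 0.27, adjusted p = 0.0320), and 0 to 2 with 1 library left out. Of all genes tested 1.94% were called higher there. Natural killer cell markers summed to 782 to 933 CPM in these KO controls against 364 to 671 CPM, and B cell markers to 884 to 1060 CPM against 202 to 721 CPM. Of 18 monocyte and macrophage markers 9 were called higher. The part of such cells in the Ifng and Irf8 differences was not tested. In CD8 KO against WT controls Ifngr1, a receptor chain, was higher (0.92 ± 0.17, adjusted p = 0.0409), and the list held 0 calls without CD8 WT control 3 or any 1 of the 3 CD8 KO controls. In KO mice with lymphoma none of the 12 passed in either co-receptor (2 had an unadjusted p under 0.05 in each; DESeq2 and voom called 0 in CD4 and 1 in CD8).

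The type I interferon-stimulated genes gave more calls than the GTPases did. Of 24 tested of 25 listed, 17 rose with lymphoma in CD4 WT mice (median 1.71), among them Oasl2 (2.85 ± 0.28), Oas1a (2.08 ± 0.23) and Cmpk2 (2.48 ± 0.29), and 17 rose in CD8 WT mice (median 1.70), among them Oas1a (2.38 ± 0.20), Rtp4 (1.81 ± 0.16) and Ifi27l2a (1.71 ± 0.15). With 1 library left out the count was 11 to 17 in each. In KO mice 16 rose in CD8 cells (median 1.21; 0 to 16 with 1 library left out) and 0 in CD4 cells (median 0.93; 17 had an unadjusted p under 0.05, DESeq2 called 14 and voom 19). CD8 KO lymphoma 1, where the 9 GTPase genes summed to 411 CPM, had the highest sum of these 25 genes of any library, 3356 CPM, against 2740.3 and 1634 CPM in pools 2 and 3. In that library, which stands apart in its erythroid and neutrophil RNA and its low pan-T sum, the 2 sets of genes thus parted. The part of RNA from other cells in this was not tested. Of 7 genes for the type I receptor and its signalling, Usp18 and Irf7 rose in CD4 WT, CD8 WT and CD8 KO mice, and with 1 library left out 1 to 2 rose in each WT comparison and 0 to 2 in CD8 KO mice.

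**Figure D4:**
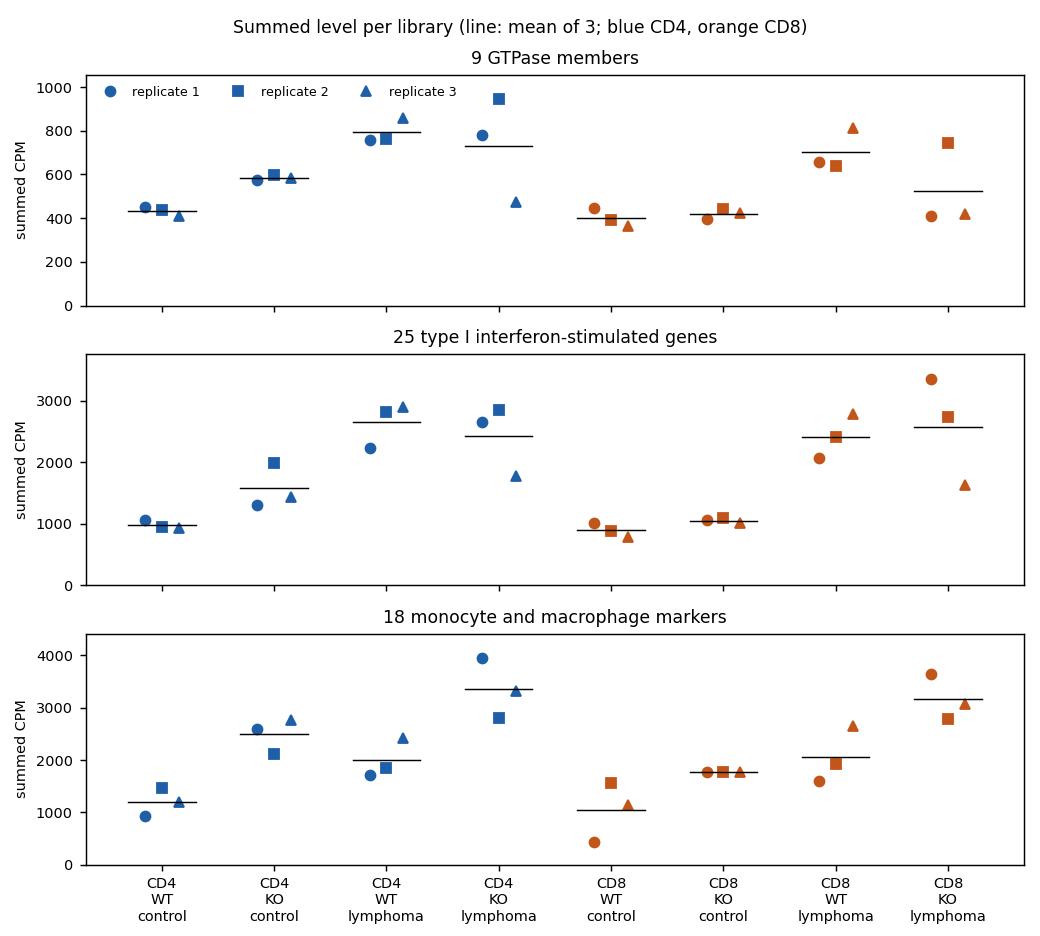
Summed level in CPM of the 9 GTPase genes (top), 25 type I interferon-stimulated genes (middle) and 18 monocyte and macrophage markers (bottom) in each of the 24 libraries, by group, with marker shapes for the replicate and a line at the mean of 3. In CD8 KO lymphoma 1 the GTPase sum is 411 CPM while the interferon-stimulated sum is the highest of all, at 3356 CPM. That library stands apart in its erythroid and neutrophil RNA. The monocyte and macrophage sum is highest in KO lymphoma libraries of both co-receptors.

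Of the other interferon-induced GTPases, 23 were listed, 22 were in the table and 21 were tested in CD4 and 19 in CD8 cells. In CD4 WT mice 3 rose with lymphoma: Mx1 (2.64 ± 0.39) and Mx2 (2.44 ± 0.37), genes of the dynamin-like GTPase family, and Gm12250 (1.25 ± 0.26), an effector of the Iigp1 branch also called Irgb10. The same 3 rose in CD8 WT mice, Mx2 by 2.09 ± 0.30, Mx1 by 2.05 ± 0.33 and Gm12250 by 1.41 ± 0.24. The medians were 0.69 and 0.74, close to those of the 9 genes (0.84 and 0.78). The counts were 1 to 3 in CD4 and 0 to 4 in CD8 cells with 1 library left out. In KO mice Mx2 alone rose in CD8 cells (1.73 ± 0.30), and none did in CD4 cells (3 had an unadjusted p under 0.05; DESeq2 called 2 and voom 3). In CD4 KO against WT controls 1 was higher, Gm4951 (1.70 ± 0.37, adjusted p = 0.0399), which shares 3′ words with Iigp1. Of 18 interferon gamma-inducible genes outside the GTPase families, 16 were tested: Cxcl10 (2.56 ± 0.33) and Serpina3g (1.28 ± 0.24) rose in CD4 WT mice and Cxcl10 (2.38 ± 0.49) in CD8 WT mice, while the antigen-processing genes of that list, such as Psmb8 and Tap1, did not pass.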

How the data were processed

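T cells were isolated from mouse spleens and 3′ tag libraries were sequenced, per the labels' protocols. The authors deposited 1 table of estimated counts per gene (34113 genes, 24 libraries); Salmon 0.11.3 and the build GRCh38 are named in the submitters' processing notes, which give neither a role. No source used here gives the build of the mouse reference. In 2 genes a letter stood in place of a count, and they were dropped, leaving 34111. No column belonged to samples of another series.

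Estimated counts were rounded, and levels are CPM over the whole column. Genes were kept by edgeR's filterByExpr (minimum count 10, minimum total 15), scaled by TMM (factors 0.903 to 1.08 in CD4, 0.972 to 1.04 in CD8) and tested with edgeR 4.0.16 (quasi-likelihood, robust, R 4.3.3). CD4 and CD8 libraries were fitted apart (12808 and 12650 genes, 8 residual degrees of freedom each), and CD8 minus CD4 in all 24 (13232 genes, 16 residual degrees of freedom). In all there were 16 comparisons. p-values were adjusted by Benjamini and Hochberg over all genes tested in a comparison, with a threshold of 0.05. A standard error is the absolute log2 change divided by the square root of F. All 9 genes passed the low-count filter in each fit. The members, the gene lists and the tests were chosen with earlier results of these data known. Genes outside the 9 were named where they passed the test in a listed group, up to 3 with the smallest p, were among the 2 with the highest mean CPM of a list without a call, or were the 6 genes with the highest correlation with the mean of the 9 genes (log2 CPM, prior count 2); the antigen-processing genes and Ifng in WT mice were named after their values were seen. A gene that this rule names, and the counts of calls that turn on it, are not reported here. Promoters come from RefSeq (GRCm38.p6) and positions from GENCODE M21.

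Alternatives were sample-weighted voom (limma 3.58.1), DESeq2 1.42.0, other size factors and filters, other sets of libraries, blocks, covariates and leaving out each library; the share of mice whose identifier starts with B was added after seeing the data. CD4 and CD8 libraries share mice: deviations from the group means correlated at -0.02 to 0.52 over the 12 pairs from the same mice, and at -0.14 to 0.32 over 24 pairs that share only a number. On simulated data with 100 genes changed 2-fold and 100 changed 4-fold, the test of CD4 WT lymphoma against control recovered 44 and 82 of them (12808 genes), and that of CD8 against CD4 WT controls 52 and 77 (13232 genes).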

Additional observations from a re-analysis of the deposited data

How the results depend on the processing

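The 9 genes kept a positive log2 change with lymphoma in CD4 and in CD8 cells of WT mice under all 17 alternatives run for each, from 1.19 to 1.65 for Iigp1 in CD4 and from 1.57 to 1.99 in CD8 cells, whereas the number called moved. In CD4 WT mice 3 of 9 were called, against 6 with DESeq2, 6 with voom, 6 with only the libraries compared, 1 with the share of B identifiers as a covariate, 0 with the monocyte and macrophage score, 0 with the Y-linked score, and 0 to 2 with 1 library left out. In CD8 WT mice 2 were called, against 5 with DESeq2, 8 with voom, 8 with only the libraries compared, 4 with all 24 libraries, 1 with the Y-linked score, 1 with the share of B identifiers, 0 with the monocyte and macrophage score, and 0 to 2 with 1 library left out. In CD4 KO mice voom called 2 with lymphoma where edgeR called 0. In CD4 KO against WT controls, voom called 4 and the libraries compared alone gave 2, against 0. In CD8 KO against WT mice with lymphoma, DESeq2 called 1 and leaving out 1 library gave 0 to 4, against 0. For CD8 minus CD4 in WT controls 1 was called, 0 without a filter, 0 with the monocyte and macrophage score and 0 to 1 with 1 library left out; in KO controls 1 was called, 2 with voom, 2 with only the libraries compared and 0 to 0 with 1 library left out. For CD8 minus CD4 in WT mice with lymphoma 0 were called, 1 with voom, 1 with only the libraries compared and 1 with the replicate block; in KO mice with lymphoma 0 were called, 1 with DESeq2, 1 with voom, 1 with the replicate block, 1 with the share of B identifiers and 0 to 1 with 1 library left out. The cause of these moves was not tested, and the share of all genes called by each alternative is not given beside these counts. Where 1 library is left out, the smaller number of libraries and the particular library cannot be told apart. Within a co-receptor the replicate block left every count of called members as it was (3 and 2 in WT mice, 0 elsewhere); the numbers link different mice there, and only in CD4 KO against WT mice with lymphoma did all 3 same-numbered pairs correlate above 0.1 (0.213, 0.171 and 0.321). Depth limits Irgm1 most, at 50 to 159 counts per library.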

Other observations

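Small ATG8-family proteins and their conjugation machinery guide both GTPase families to membranes, and 1 of 10 such genes stood apart. Gabarapl1 rose with lymphoma in CD4 WT (1.27 ± 0.28, adjusted p = 0.0429) and CD8 WT mice (1.72 ± 0.23, adjusted p = 0.00615) and was 2.83-fold higher in CD4 KO than WT controls (adjusted p = 0.0311), where the first 2 values are log2 changes from edgeR. The medians of the 10 were 0.02 and 0.04 with lymphoma in CD4 and CD8 WT mice. The CD8 WT call held with each library left out in turn, while the CD4 calls were lost in at least 1 such fit. Of 8 inflammasome genes linked to guanylate-binding proteins, 0 rose with lymphoma in edgeR in WT mice (3 had an unadjusted p under 0.05 in each co-receptor, DESeq2 called 2 in each, and voom called 0 in CD4 and 1 in CD8 cells). In CD4 KO against WT controls 2 of these 8 were higher, Il18 (1.21 ± 0.25) and Casp1 (1.04 ± 0.22). In the same comparison 9 of 18 monocyte and macrophage markers were higher too. With the monocyte and macrophage score as a covariate no gene of all tested passed, so that fit says nothing particular to these 8 genes.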
